A study of Homo sapiens with 12 samples.

Results

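The 3 genes described here encode the subunits of human ribonucleotide reductase: RRM1, RRM2 and RRM2B. They were taken by gene name and are 3 of the 58302 genes in the table, 1 row each. RNA sequencing had been carried out on 12 libraries of total RNA from 4 pancreatic cancer cell lines, 3 libraries per line. The parental lines were BxPC-3 and CFPAC-1, both labeled drug sensitive and epithelial. Gemcitabine (GEM), a deoxycytidine analog used against pancreatic cancer, had been given to each in rising concentrations until a resistant line was obtained. BxPC-3-GR was labeled resistant and mesenchymal and had been taken to a final 1000 nmol/L GEM. CFPAC-1-GR was labeled resistant and epithelial and had been taken to a final 400 nmol/L GEM. Each resistant line is thus 1 selected derivative of 1 parental line, and the sources do not say that the 3 libraries of a line came from separate cultures, so p-values measure only the spread between these libraries.

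Ribonucleotide reductase converts ribonucleoside diphosphates into the deoxyribonucleotides that DNA synthesis needs. The large subunit, RRM1, holds the catalytic site and the sites through which nucleotides regulate the enzyme. A small subunit carries the iron center and tyrosyl radical that catalysis needs: RRM2 in dividing cells, where it accumulates in S phase and is destroyed afterwards, or RRM2B, a p53-inducible paralog that also serves cells outside S phase. Gemcitabine diphosphate inactivates the enzyme, and gemcitabine triphosphate competes with dCTP for incorporation into DNA, so the enzyme's subunits have long been studied in cells that survive the drug.

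Expression is given as FPKM, mapped fragments scaled for transcript length and for the size of the library, as the authors deposited it. FPKM is scaled for gene length, so levels of different genes can be set side by side. A log2FC is the difference of group means of log2(FPKM + 1). A gene was tested where its mean over the libraries compared was at least 1 FPKM. It was called significantly differentially expressed (SDE) at an adjusted p below 0.05 with an absolute log2FC above 1 in limma's test across all genes, with Benjamini-Hochberg adjustment. The pseudocount of 1 understates the change of genes with low FPKM. The depth is not given with the table. The smallest steps between values imply 12600000 to 25200000 mapped fragments per library, but only 46.2% to 60.6% of the low values came out whole within 0.02 of a fragment, so no count test was run. Within a line the Spearman correlation between libraries was 0.965 to 0.981 across genes. All 6 epithelial markers examined (among them EPCAM and KRT8) lay between 18.1 and 1668 FPKM in every library, also in BxPC-3-GR. Of 16 markers of other cell types, 14 stayed below 1 FPKM everywhere, PTPRC, INS and GCG among them at 0, and COL1A1 and CD68 reached 3.32 and 36.9 FPKM.

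RRM1 (ENSG00000167325) spans bases 4094707 to 4138876 of chromosome 11 on GRCh38, plus strand. RRM2 (ENSG00000171848) spans bases 10120698 to 10131419 of chromosome 2, also plus strand. Both genes are transcribed toward and through S phase in cycling cells. The 250 bases before a RefSeq start site of each are shown because the results turn on the balance between the mRNAs of this pair. The windows come from RefSeq (GRCh38.p14), chr11:4094435-4094684 for RRM1 and chr2:10122489-10122738 for RRM2, and are written 5′ to 3′ on the plus strand. Capitals mark CCAAT, the box bound by NF-Y, and TTNNCGC, letters found in E2F sites, searched on both strands.
RRM1: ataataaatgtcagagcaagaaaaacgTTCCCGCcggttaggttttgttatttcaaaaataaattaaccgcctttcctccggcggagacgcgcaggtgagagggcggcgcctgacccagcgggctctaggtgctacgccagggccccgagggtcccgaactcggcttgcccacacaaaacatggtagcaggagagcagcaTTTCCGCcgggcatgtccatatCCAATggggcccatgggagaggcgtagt
RRM2: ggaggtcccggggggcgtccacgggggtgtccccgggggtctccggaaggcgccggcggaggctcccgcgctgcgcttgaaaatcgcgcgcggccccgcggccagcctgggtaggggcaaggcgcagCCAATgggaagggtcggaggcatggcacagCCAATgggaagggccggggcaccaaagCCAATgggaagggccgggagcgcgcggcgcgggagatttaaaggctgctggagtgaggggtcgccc
The RRM2 window holds 3 CCAAT boxes, which begin 123, 93 and 66 bases before the start, and no TTNNCGC. At least 3 CCAAT boxes stand in 2.93% of the 35116 RefSeq promoter windows of this length, and at least 1 stands in 32.01%. The RRM1 window holds 1 CCAAT box, 28 bases before the start, and 2 TTNNCGC, 223 and 50 bases before it. At least 2 TTNNCGC stand in 4.47% of the windows and at least 1 in 21.7%. A second RefSeq window of RRM2, chr2:10122318-10122567, holds 1 of each. Both RRM2 windows lie inside the gene span given above, so they precede RefSeq starts and not the first base of that span. These matches describe the letters only.

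RRM1 rose in both GEM-resistant lines and became one of their most abundant mRNAs. In BxPC-3 it had 29.5, 30.2 and 27.6 FPKM in replicates 1 to 3, and in BxPC-3-GR 424, 419 and 396 FPKM. The groups were far apart, since the lowest BxPC-3-GR library lay at 396 FPKM and the highest BxPC-3 library at 30.2 FPKM. In CFPAC-1 it had 8.55, 8.53 and 7.14 FPKM, and in CFPAC-1-GR 302, 311 and 304 FPKM. The groups did not overlap here either, and the lowest CFPAC-1-GR library lay above every parental library of both lines. The libraries are of bulk RNA, so more RNA per cell and more cells holding it cannot be told apart. The group means were 29.1 ± 1.31 and 413 ± 14.9 FPKM (SD, n = 3) in BxPC-3 and BxPC-3-GR, and 8.07 ± 0.809 and 306 ± 4.91 FPKM (SD, n = 3) in CFPAC-1 and CFPAC-1-GR. Mean FPKM was 14.2-fold higher in BxPC-3-GR (log2FC 3.78, SE 0.0575, limma adjusted p = 1.0e-06) and 37.9-fold higher in CFPAC-1-GR (log2FC 5.08, SE 0.0831, limma adjusted p = 7.7e-07). By log2FC, RRM1 was the 11th of 11710 tested genes in BxPC-3-GR and the 3rd of 12051 in CFPAC-1-GR. Among 19817 protein-coding genes ordered by FPKM, it stood at places 814 to 881 in BxPC-3 and 24 to 27 in BxPC-3-GR. In CFPAC-1 it stood at places 3121 to 3550, and in CFPAC-1-GR at 29 to 34. Of all tested genes, 20.5% were called up in CFPAC-1-GR, against 4.14% in BxPC-3-GR. RRM1-AS1, an antisense transcript that overlaps RRM1 (chromosome 11, 4137116 to 4138257, minus strand), was listed at 0 in all 6 parental libraries, at 1.15, 1.34 and 0.931 FPKM in BxPC-3-GR and at 0, 0.507 and 0 FPKM in CFPAC-1-GR. Whether the counting used strand is not given in the sources used here, so reads from the antisense transcript and from RRM1 cannot be told apart.

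**Figure D1:**
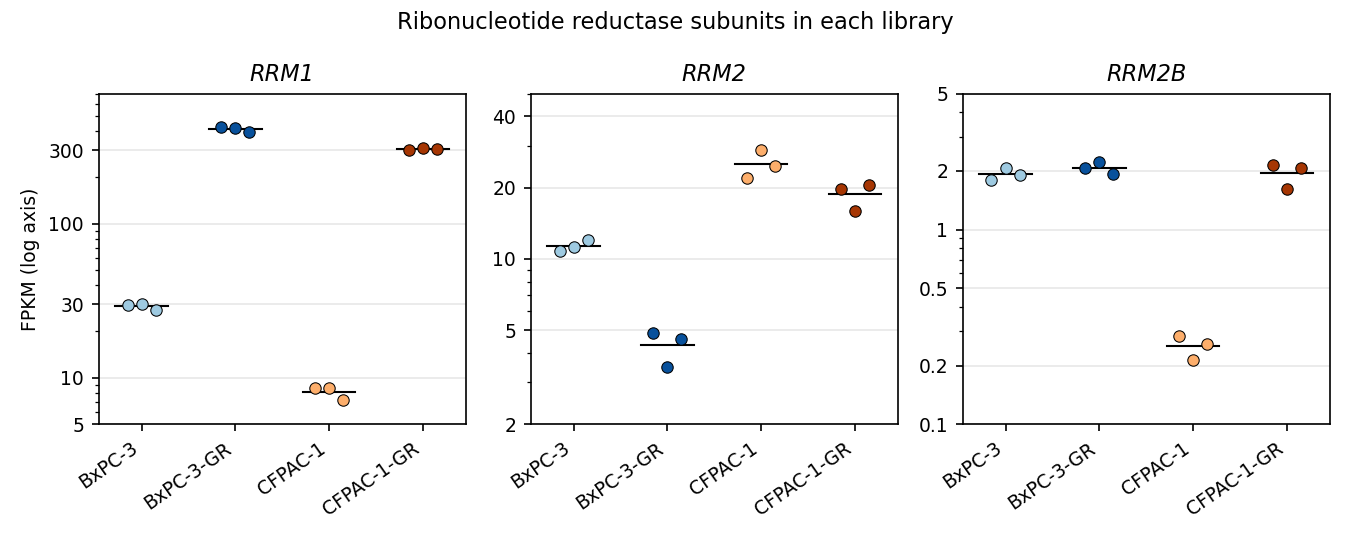
FPKM (log axes, with a range of their own in each panel) of RRM1, RRM2 and RRM2B in the 12 libraries. Dots are libraries in the order of replicates 1 to 3 and lines are group means. RRM1 lies at 396 FPKM or more in the BxPC-3-GR libraries and at 302 or more in the CFPAC-1-GR libraries, whereas RRM2 is lower in both resistant lines and RRM2B is lowest in CFPAC-1.

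RRM2, the S phase small subunit, was lower in both resistant lines as deposited, but it shares exons with another gene. How fragments were divided between them was not tested. In BxPC-3, RRM2 had 10.8, 11.2 and 11.97 FPKM, and in BxPC-3-GR 4.86, 3.49 and 4.57 FPKM. In CFPAC-1 it had 21.9, 28.8 and 24.7 FPKM, and in CFPAC-1-GR 19.8, 16.0 and 20.5 FPKM. The groups did not overlap in either line, although the CFPAC-1 and CFPAC-1-GR libraries came close. The means were 11.3 ± 0.614 and 4.31 ± 0.723 FPKM (SD, n = 3) in the BxPC-3 pair and 25.2 ± 3.48 and 18.8 ± 2.44 FPKM (SD, n = 3) in the CFPAC-1 pair. In BxPC-3-GR, RRM2 fell by 1.22 on the log2 scale (SE 0.109, limma adjusted p = 0.00022), a 2.63-fold lower mean FPKM and the 249th lowest log2FC. In CFPAC-1-GR the log2FC was -0.40 (SE 0.132, limma adjusted p = 0.025), a 1.34-fold lower mean that did not reach the fold criterion. Of all tested genes, 11.7% were called down in CFPAC-1-GR, against 3.62% in BxPC-3-GR. Groups that do not overlap were common: 66.1% of tested genes in the BxPC-3 pair and 82.1% in the CFPAC-1 pair.

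AC007240.1 (ENSG00000284681), annotated as protein coding, lies on the same strand as RRM2, and 9 of the 12 exons of its longest transcript fall in RRM2 exons. The shared stretch of 1077 bases makes up 41.0% of its annotated exon sequence and 20.2% of that of RRM2. Its values varied widely between replicates. In BxPC-3-GR it had 3.18, 8.47 and 0.202 FPKM, and in BxPC-3 0.115, 2.38 and 0.235 FPKM. In CFPAC-1-GR it had 10.1, 29.6 and 7.25 FPKM, and in CFPAC-1 8.72, 0.953 and 3.95 FPKM. In 3 of the lines (all but BxPC-3) the library with the most AC007240.1 was the one with the least RRM2, and in CFPAC-1 the library with the least AC007240.1 had the most RRM2. When AC007240.1 was added to RRM2 in proportion to their exon lengths, CFPAC-1-GR had 26.5 ± 3.58 FPKM and CFPAC-1 27.4 ± 1.66 FPKM (SD, n = 3). The log2FC then was -0.05 in CFPAC-1-GR (SE 0.106, limma adjusted p = 0.66) and -0.83 in BxPC-3-GR (SE 0.157, limma adjusted p = 0.0047), below the fold criterion in both. With the plain sum of FPKM it was 0.17 in CFPAC-1-GR (limma adjusted p = 0.40) and -0.59 in BxPC-3-GR (limma adjusted p = 0.12). The fall of RRM2 was therefore called in BxPC-3-GR only for the RRM2 row taken alone. Both sums were chosen after the values of AC007240.1 were seen. The 3 RRM2 pseudogenes in the table (RRM2P2, RRM2P3 and RRM2P4) reached at most 0.797 FPKM.

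**Figure D2:**
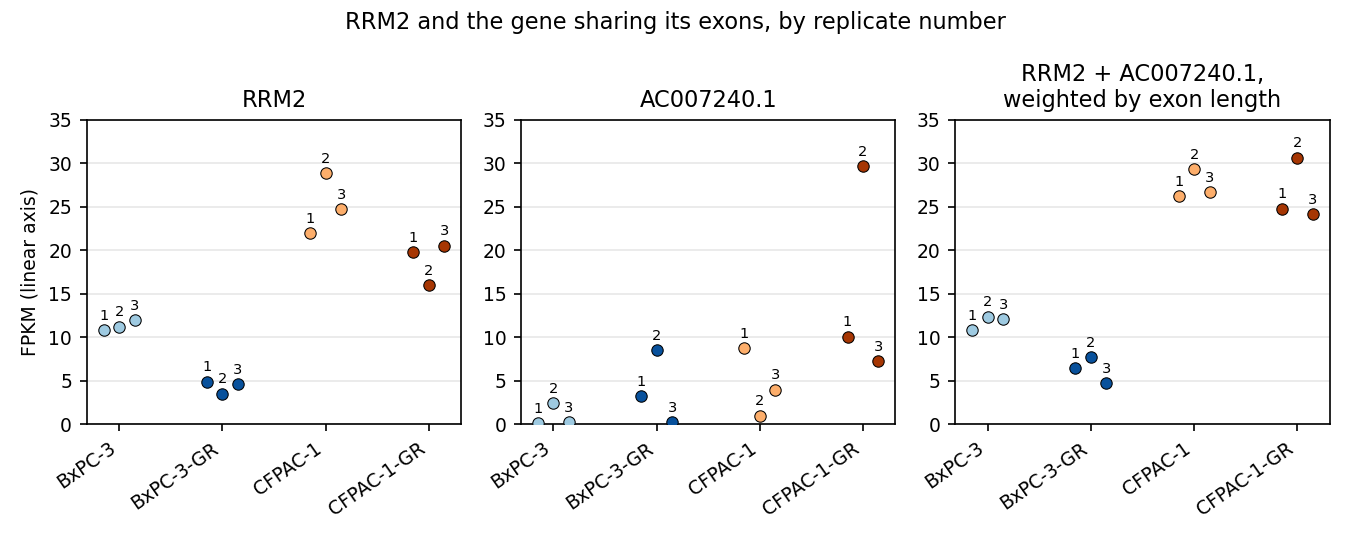
FPKM (linear axes, same range) of RRM2, of AC007240.1 and of RRM2 with AC007240.1 added in proportion to exon length, in the 12 libraries. Dots are libraries labeled with their replicate number. The CFPAC-1-GR library with 29.6 FPKM of AC007240.1 has the lowest RRM2 of its group, 16.0 FPKM, and CFPAC-1 and CFPAC-1-GR overlap in the weighted sum.

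RRM2B (ENSG00000048392), the p53-inducible small subunit, is encoded on the minus strand of chromosome 8 from 102204502 to 102239118. It was at a like low level in 3 of the lines and lower in parental CFPAC-1. In BxPC-3 it had 1.81, 2.07 and 1.91 FPKM, and in BxPC-3-GR 2.08, 2.22 and 1.92 FPKM. These groups overlapped, with means of 1.93 ± 0.132 and 2.07 ± 0.151 FPKM (SD, n = 3) and a log2FC of 0.07 (SE 0.0619, limma adjusted p = 0.37). In CFPAC-1 it had 0.283, 0.214 and 0.257 FPKM, and in CFPAC-1-GR 2.16, 1.62 and 2.07 FPKM. Every CFPAC-1-GR library lay above every CFPAC-1 library, with means of 1.95 ± 0.290 and 0.251 ± 0.0349 FPKM (SD, n = 3). RRM2B rose in CFPAC-1-GR (log2FC 1.23, SE 0.0888, limma adjusted p = 1.9e-05), and the ratio of mean FPKM was 7.75. It passed the filter there only through the resistant libraries, since its mean over the 6 libraries was 1.10 FPKM. In CFPAC-1 its value rests on an implied 15 to 30 fragments per library, against 153 to 261 in CFPAC-1-GR.

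Base composition moved with this rise. The transcript of RRM2B has a GC content of 36.4%, in the lowest of 10 equal bins of tested genes by GC content, against 43.5% for RRM1 and 45.8% for RRM2. In CFPAC-1-GR against CFPAC-1 that bin had a median log2FC of 1.27, with 67.3% of its genes called up, and the bin of highest GC content a median of -0.96, with 46.6% called down. In BxPC-3-GR against BxPC-3 the medians of the bins stayed between -0.09 and 0.02. Between the parental lines the lowest bin had a median of -1.30 in CFPAC-1. With a spline correction for GC content and length, the log2FC of RRM2B in CFPAC-1-GR was -0.04 (SE 0.0679, limma adjusted p = 0.65). With the correction and a pseudocount of 0.1 it was 0.76 (limma adjusted p = 0.0022), below the fold criterion. RRM1 stayed called after the correction at 4.35 in CFPAC-1-GR (SE 0.0792, limma adjusted p = 1.8e-06), and RRM2 was at -0.93. In BxPC-3-GR the corrected values were 3.81, -1.24 and 0.11 for RRM1, RRM2 and RRM2B. What gave the libraries of CFPAC-1 their different base composition was not tested.

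**Figure D3:**
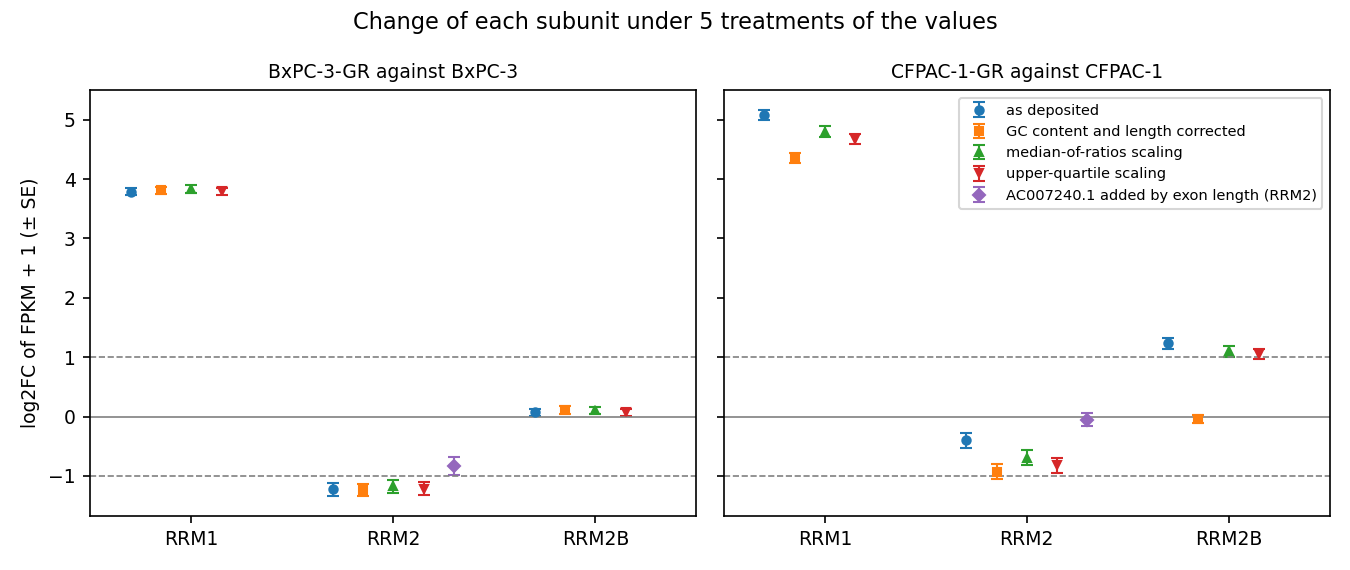
Log2FC of FPKM + 1 with its SE for the 3 subunits in each resistant line, under 5 treatments of the values. Dashed lines mark the fold criterion of 1. RRM1 lies between 3.78 and 5.08 in the treatments shown for both lines, RRM2 lies near 0 in CFPAC-1-GR once AC007240.1 is added, and RRM2B in CFPAC-1-GR lies near 0 once corrected for GC content and length.

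The balance between the mRNAs shifted toward the large subunit in both lines. RRM1 over RRM2 was 2.74, 2.70 and 2.31 in BxPC-3 and 87.4, 120 and 86.7 in BxPC-3-GR. In CFPAC-1 it was 0.390, 0.296 and 0.289, and in CFPAC-1-GR 15.3, 19.5 and 14.8. RRM2 mRNA was thus the more abundant of the pair in CFPAC-1 alone, and RRM1 mRNA in the other 3 lines. The log2 ratio was higher by 5.23 in BxPC-3-GR (SE 0.174) and by 5.67 in CFPAC-1-GR (SE 0.187), which is 37.6-fold and 50.9-fold. With AC007240.1 added by exon length, the differences were 4.77 and 5.30. RRM1 over the sum of both small subunits was higher by 4.89 in BxPC-3-GR (SE 0.114, 29.6-fold) and by 5.54 in CFPAC-1-GR (SE 0.187, 46.6-fold). Of the summed FPKM of the 3 genes, RRM1 made up 68.7% ± 1.90 in BxPC-3 and 98.5% ± 0.154 in BxPC-3-GR (SD, n = 3). In the CFPAC-1 pair the share was 24.2% ± 3.09 and 93.7% ± 0.868 (SD, n = 3).

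Between the small subunits, RRM2B over RRM2 was 0.168, 0.185 and 0.159 in BxPC-3 and 0.427, 0.637 and 0.420 in BxPC-3-GR. It was 0.0129, 0.00742 and 0.0104 in CFPAC-1 and 0.109, 0.101 and 0.101 in CFPAC-1-GR. RRM2 remained the more abundant small subunit in all 12 libraries. RRM2B took up 14.6% ± 0.951 of the small subunit FPKM in BxPC-3 and 32.8% ± 5.29 in BxPC-3-GR (SD, n = 3), and 1.01% ± 0.269 and 9.40% ± 0.377 in CFPAC-1 and CFPAC-1-GR (SD, n = 3). The log2 ratio of RRM2B to RRM2 was higher by 1.51 in BxPC-3-GR (SE 0.206) and by 3.38 in CFPAC-1-GR (SE 0.235). Corrected for GC content and length, the latter was 0.89. The log2 ratio of RRM1 to RRM2B was higher by 3.72 in BxPC-3-GR (SE 0.0694) and by 2.29 in CFPAC-1-GR (SE 0.213). The order of the lines turned with the correction (3.70 and 4.39) and with a pseudocount of 1 (3.71 and 3.85). The 4 ratios gave 8 comparisons, none with overlapping groups, and each had p = 0.10 in a two-sided exact permutation test, the smallest that 3 libraries against 3 allow, and the same after Benjamini-Hochberg adjustment.

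**Figure D4:**
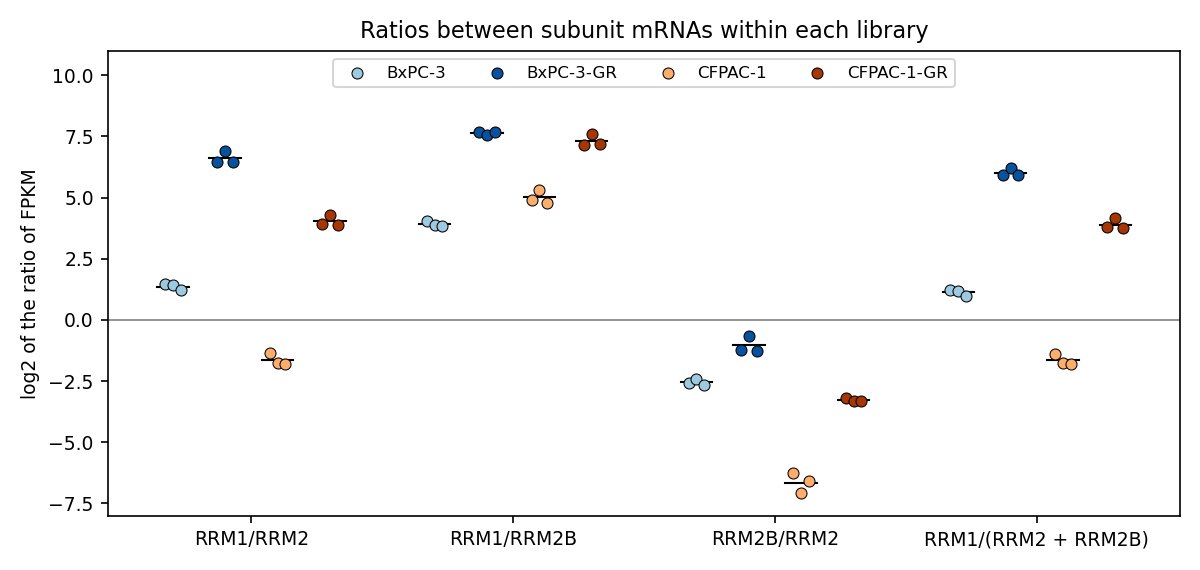
Log2 of the ratio of FPKM between subunits within each of the 12 libraries, by line. Dots are libraries and lines are group means. RRM1 over RRM2 lies below 0 in the 3 CFPAC-1 libraries and above 3 in all 6 resistant libraries.

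Between the parental lines, all 3 subunits differed by the SDE criteria: RRM1 was lower in CFPAC-1 than in BxPC-3 (log2FC -1.73, limma adjusted p = 2.1e-06), RRM2 was higher (1.08, limma adjusted p = 7.3e-05) and RRM2B was lower (-1.23, limma adjusted p = 2.2e-06). The share called among all genes was 44.5%, and 85.6% had no overlap, as had all 3 subunits. RRM2B passed the filter here only through the BxPC-3 libraries, since its mean over the libraries compared was 1.09 FPKM. Its low values in CFPAC-1 rest on an implied 15 to 30 fragments per library. Corrected for GC content and length, RRM2B stood at 0.03 (limma adjusted p = 0.63), RRM1 at -1.07 and RRM2 at 1.52. Without CFPAC-1 replicate 2, RRM2 was at 0.98, just under the fold criterion. Between the resistant lines, RRM2 was higher in CFPAC-1-GR (log2FC 1.90, SE 0.135, limma adjusted p = 3.1e-05), where 17.1% of genes were called. RRM1 was at -0.43 (SE 0.0591, limma adjusted p = 0.00070), short of the fold criterion, and its groups did not overlap, like those of RRM2 and of 71% of genes. RRM2B did not differ beyond its spread (log2FC -0.06, SE 0.0905, limma adjusted p = 0.56). In order of mean FPKM, RRM1 was thus highest in BxPC-3-GR, followed by CFPAC-1-GR, BxPC-3 and CFPAC-1. RRM2 was highest in CFPAC-1, followed by CFPAC-1-GR, BxPC-3 and BxPC-3-GR. No neighbors in either order overlapped as deposited. With AC007240.1 added, CFPAC-1 and CFPAC-1-GR overlapped in RRM2, and by plain sum CFPAC-1-GR had the higher mean (34.4 against 29.7 FPKM). For RRM2B the libraries of BxPC-3-GR, CFPAC-1-GR and BxPC-3 overlapped, and CFPAC-1 lay below them.

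The response of the lines to selection was compared with an interaction term over all 12 libraries. The change of RRM1 was larger in CFPAC-1-GR by 1.30 on the log2 scale (SE 0.0981, limma adjusted p = 4.4e-07), that of RRM2B by 1.16 (SE 0.107, limma adjusted p = 2.1e-06) and that of RRM2 by 0.82 (SE 0.182, limma adjusted p = 0.0017). Those of RRM1 and RRM2B passed the fold criterion, as did those of 38% of genes. Corrected for GC content and length, the terms were 0.57 (SE 0.0974, limma adjusted p = 0.00046) for RRM1, -0.10 for RRM2B and 0.32 for RRM2, all below the criterion.

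Genes that supply or use deoxyribonucleotides were taken in 5 lists of 120 genes in all. In BxPC-3-GR, 112 of these were tested and 7 called, 3 up and 4 down, with a median log2FC of -0.25 against -0.05 over all genes, of which 4.14% were called up and 3.62% down. In CFPAC-1-GR, 107 were tested and 33 called, 16 up and 17 down, with a median of 0.03 against 0.13 over all genes, of which 20.5% were called up and 11.7% down. The counts of each list below are to be read against these shares of the same line. None was called in both lines. With the correction for GC content and length there were 2 calls in CFPAC-1-GR, 1 up and 1 down, and 9 in BxPC-3-GR, against 4.69% of all genes called up and 3.97% down in CFPAC-1-GR. Scaling by median-of-ratios or upper quartile moved the median of all genes in CFPAC-1-GR from 0.13 to -0.11 and -0.21, and the calls of the lists there to 10 up and 24 down, and to 7 up and 27 down.

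The S phase list, whose genes are transcribed together with RRM2, had 34 genes tested in BxPC-3-GR, and 32 of them lay below 0, with a median of -0.35. The calls there were CCNE1, the cyclin that drives entry into S phase (log2FC -1.41, 6.73 to 1.92 FPKM), and LIG1, the replicative DNA ligase (-1.07, 9.67 to 4.09 FPKM). Only CCNE1 lay below the RRM2 row taken alone (-1.22). With AC007240.1 added by exon length, RRM2 was at -0.83. LIG1 and CDT1 (-0.97) were then among the further genes below it, while most of the list still lay above. In CFPAC-1-GR, 5 of 33 were called up and 3 down, both below the shares over all genes (20.5% and 11.7%), with a median of 0.10. Among these, POLA1 of DNA polymerase alpha rose by 1.56, POLD1 of DNA polymerase delta stood at -1.56 and the licensing factor CDT1 at -1.67. These 3 moved to 0.65, -0.72 and -0.73 after the correction and were no longer called.

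In the list of deoxyribonucleotide synthesis and salvage, 22 of 24 genes were tested in each line. NME1, a nucleoside diphosphate kinase, was the 1 called in BxPC-3-GR (log2FC -1.21, 18.8 to 7.62 FPKM). It overlaps the readthrough gene NME1-NME2, so its value is uncertain. In CFPAC-1-GR 3 rose and 6 fell. The 5′-nucleotidase NT5C (-1.34) and NUDT1, which clears oxidized nucleotides (-1.33), were at -0.24 and -0.52 after the correction.

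Of the 8 electron donors of the enzyme, none was called in BxPC-3-GR. In CFPAC-1-GR the thioredoxin reductase TXNRD1 rose (log2FC 1.45, 3.96 to 12.7 FPKM) and the mitochondrial thioredoxin TXN2 fell (-1.09). After the correction they were at 0.74 and -0.44 and neither was called, while 1 other of the 8 was called down. Among 23 tested regulators of the subunits, none was called in BxPC-3-GR. In CFPAC-1-GR 5 rose and 4 fell, where 20.5% and 11.7% of all genes did. ATR, the checkpoint kinase that protects RRM2 from degradation, had a log2FC of 1.87 in CFPAC-1-GR, where it rose, against -0.68 for BxPC-3-GR. The cyclin-dependent kinase CDK1 had 1.31 against -0.40, and E2F1, a transcription factor of S phase genes, -1.73 against -0.00. After the correction ATR, CDK1 and E2F1 were at 0.53, 0.15 and -0.78 in CFPAC-1-GR.

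Targets of p53 were taken beside RRM2B, itself one. Whether p53 was active in these lines was not tested. The median log2FC of the list was -0.0015 in BxPC-3-GR, against -0.05 over all genes. It was -0.25 in CFPAC-1-GR, against 0.13 over all genes. In BxPC-3-GR 3 of 25 rose and 1, the nuclease gene AEN, fell (log2FC -1.33), where 4.14% and 3.62% of all genes did. GDF15, a stress cytokine, rose from 2.61 to 13.8 FPKM (log2FC 2.03), SESN2, a stress-induced inhibitor of growth signaling, from 3.27 to 11.6 FPKM (1.56), and TP53INP1 from 0.176 to 3.45 FPKM (1.90). TP53INP1 passed the filter only through the BxPC-3-GR libraries and was not tested in CFPAC-1-GR. RRM2B had no such change there, and GDF15 and SESN2 were at -0.28 and -0.97 in CFPAC-1-GR, not called. After the correction GDF15 turned to 0.71 there (limma adjusted p = 0.0015, below the fold criterion) and SESN2 was at -0.21. In CFPAC-1-GR 2 of 21 rose and 3 fell, where 20.5% and 11.7% of all genes did. MDM2, the ubiquitin ligase of p53, which like ATR passed the filter there only through the resistant libraries, had 0.795 and 3.94 FPKM (log2FC 1.44) and CCNG1 1.26, whereas CDKN1A, the p21 inhibitor of cyclin-dependent kinases, stood at -1.19. After the correction these were 0.24, 0.20 and -0.49, none called, and the targets of p53 had no call in CFPAC-1-GR.

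The genes next to the subunits were then compared. Of 6 tested genes that start within 0.5 Mb of RRM1, 5 rose in BxPC-3-GR and none fell, with a median log2FC of 3.63 against -0.05 over all genes. Of all tested genes, 4.14% were called up in that line. In CFPAC-1-GR 5 of 7 rose, with a median of 1.45 against 0.13, and after the correction 6 of 7 rose. There 20.5% of all tested genes were called up, and 4.69% after the correction. Distances are given between the lower coordinates of the genes, and log2FC values first for BxPC-3-GR, then for CFPAC-1-GR. STIM1, the calcium sensor of the endoplasmic reticulum, lies at -240 kb from RRM1 and had 3.95 and 2.77. RHOG, a small GTPase, lies at -268 kb and had 4.05 and 0.89. It was not called in CFPAC-1-GR as deposited, but was called there after the correction (1.81). TRIM21, an antibody receptor and ubiquitin ligase, lies at 290 kb and had 4.24 and 2.95, and NUP98, a nucleoporin at -424 kb, had -0.51 and 1.37. NUP98 was called in CFPAC-1-GR only, and after the correction it was at 0.94 there and no longer called. AC015689.1, the nearest tested gene, was tested only in CFPAC-1-GR (1.45), where it passed the filter only through the resistant libraries (0.0743 and 1.97 FPKM). AC090587.2 and PGAP2 passed it in BxPC-3-GR in the same way, and AC090587.2 overlaps STIM1 and may share its fragments. Around RRM2, 2 of 7 genes rose in CFPAC-1-GR (TAF1B and NOL10) and HPCAL1 fell. These counts are near the shares of all genes called up and down there, 20.5% and 11.7%. None of the 7 was called after the correction. In BxPC-3-GR none of 5 was called, where 4.14% of all genes were called up and 3.62% down. The ornithine decarboxylase gene ODC1, at 319 kb from RRM2, had -0.81 and -0.09. Near RRM2B, the zinc finger factor KLF10 at 444 kb had 0.22 and 0.68 and was not called in either line. No copy number was measured in these libraries, and more gene copies and more transcript per copy cannot be told apart.

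**Figure D5:**
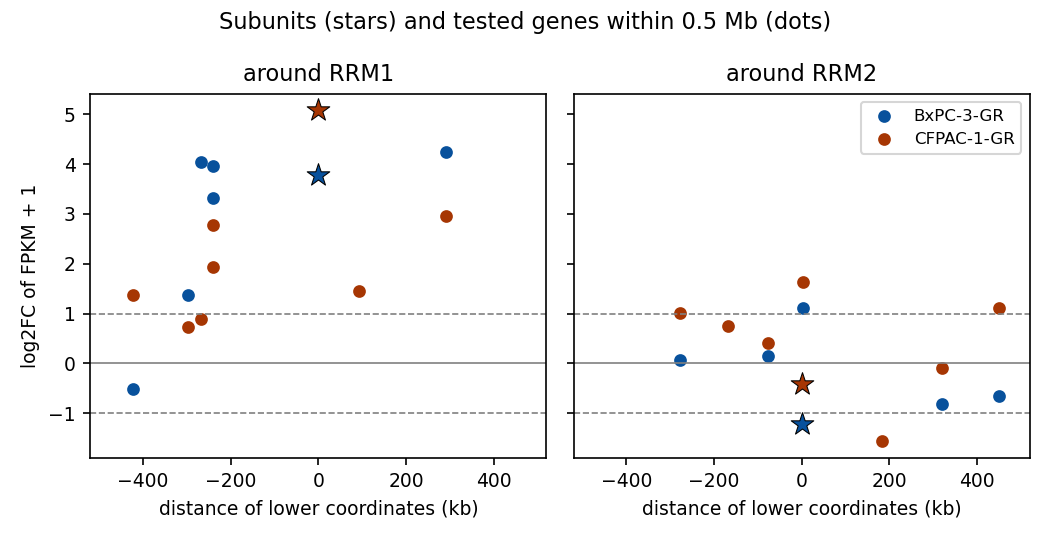
Log2FC of FPKM + 1 of the tested genes that start within 0.5 Mb of RRM1 or RRM2 (dots) and of the subunit itself (stars), by the distance in kb between the lower coordinates of the genes. Blue is BxPC-3-GR and brown CFPAC-1-GR, and dashed lines mark the fold criterion of 1. Around RRM1, 5 of 7 genes in CFPAC-1-GR and 5 of 6 in BxPC-3-GR lie above the upper line and were called. Over all tested genes, 20.5% and 4.14% were called up. The called genes differ in part, since RHOG was called in BxPC-3-GR only and NUP98 in CFPAC-1-GR only. None around RRM2 was called in BxPC-3-GR.

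Finally, the genes whose profile over the 12 libraries was most like that of each subunit were found by the root mean square difference of centered log2(FPKM + 1) among 12210 genes. For RRM1 these were TRIM21 (0.839), STIM1 (0.962), the mucin MUC16 (1.17), the integrin ITGB8 (1.18) and BIRC3 (1.19), and no gene was within 0.25. MUC16 passed the filter only through the resistant libraries, with 0.0515 FPKM in BxPC-3 and 0.397 FPKM in CFPAC-1. With the correction, the log2FC of MUC16, ITGB8 and BIRC3 in CFPAC-1-GR moved from 1.98, 2.94 and 2.70 to 1.39, 1.44 and 1.33. Those of TRIM21 and STIM1 moved from 2.95 and 2.77 to 3.17 and 3.11. The profile of RRM1 itself had a root mean square of 2.31. For the RRM2 row taken alone, the likest were ACSL5 (0.164), HIST1H2BD (0.187), NES (0.210), PTX3 (0.217) and RHOB (0.218), with 6 genes within 0.25. None of these 5 is on the S phase list. RRM2B, by contrast, had 1047 genes within 0.25, led by DENR (0.0592), MTPN (0.0645), FCHO2 (0.0749), CCDC34 (0.0774) and RAB10 (0.0802). The log2FC of these 5 genes in CFPAC-1-GR lay between 1.12 and 1.28, and after the correction between -0.03 and 0.19.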

How the data were processed

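The 12 libraries of total RNA were compared in 4 groups of 3, taken from the labels. The table was deposited as FPKM per gene, made by the authors from trimmed and aligned reads. The submitters' processing notes name Trimmomatic 0.27, FastQC 0.10.1 and TopHat2 2.0.8. The tool that computed FPKM, its use of strand and its treatment of multiply mapped reads are not given in the sources used here. The labels name both hg19 and GRCh38, and the gene IDs and loci of the table match GENCODE 29 on GRCh38 (58039 of 58302 genes). The study's count-based test could not be applied to FPKM, so limma 3.58.1 in R 4.3.3 was fitted to log2(FPKM + 1) across all genes that averaged 1 FPKM or more in the libraries compared. The 2 resistant-against-parental comparisons, the comparisons between parental and between resistant lines, and their interaction made 5 fits.

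Alternatives were a pseudocount of 0.1, no filter, other scalings, a spline correction for GC content and length (5 df each), a test against an absolute log2FC of 1, a replicate block and leaving out each library. Ratios of FPKM were compared by two-sided exact permutation. The genes described and the lists were chosen with earlier results of these data known, so no list was tested. From each list the 3 called genes with the largest absolute log2FC in each line were named, with the nearest tested genes of each subunit and the 5 likest profiles, while NUP98, ODC1, AEN and the pseudogenes were added after their values were seen. The pipeline was tested on simulated data. The correlation of deviations between libraries sharing a replicate number was -0.143 to 0.0959 over 12 pairs, so the numbers do not pair the libraries. No 2 libraries held identical values. Sequences of the proteins were not used here. Some genes of the lists and some neighboring genes are not reported here.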

Additional observations from a re-analysis of the deposited data

Results flagged for a closer look

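The change between the parental and the resistant line differed between BxPC-3 and CFPAC-1 for each subunit, by the interaction term of limma over 12 libraries. For RRM1 the log2FC was larger in CFPAC-1-GR by 1.30 (limma adjusted p = 4.4e-07), with a range of 0.44 to 1.41 over the alternatives, and it was 0.95 and 0.85 under median-of-ratios and upper-quartile scaling. For RRM2 it was larger, that is less negative, in CFPAC-1-GR by 0.82 (limma adjusted p = 0.0017), and it was 0.32 once corrected for GC content and length (limma adjusted p = 0.13). For RRM2B the difference was 1.16 (limma adjusted p = 2.1e-06), and it was -0.10 after that correction (limma adjusted p = 0.36). The parental CFPAC-1 libraries, in which genes of low GC content were low, enter all 3 differences.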

How the results depend on the processing

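Of 478 values recomputed under alternatives, 413 kept their direction and their side of the threshold or moved by less than 1 SD, including all 21 log2FC values of RRM1 for BxPC-3-GR and 20 of 21 for CFPAC-1-GR. Some alternatives, among them no filter and the replicate block, cannot move a log2FC and alter only its error and p-value, which raises this count. A value that kept its side of the threshold could still move. RRM2 in CFPAC-1-GR, at -0.40 as deposited and -0.05 with AC007240.1 added by exon length, was counted as kept. Alternatives that combined 2 choices, used a minimum mean of 0.1 FPKM, corrected the ratios or added AC007240.1 were chosen after seeing the data. Depth is not given with the table, which limits what can be said of RRM2B in CFPAC-1. Unless a sentence says otherwise, the cause of a change was not tested.

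With AC007240.1 added to RRM2 by plain sum or by exon length, the log2FC of RRM2 was 0.17 or -0.05 in CFPAC-1-GR, against -0.59 or -0.83 for BxPC-3-GR. The log2 ratio of RRM1 to RRM2 was then higher by 4.49 or 4.77 (BxPC-3-GR) and by 5.07 or 5.30 (CFPAC-1-GR), that of RRM2B to RRM2 by 0.76 or 1.04 and by 2.78 or 3.01, and that of RRM1 to both small subunits by 4.34 or 4.56 and by 5.00 or 5.21.

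With the GC content and length correction, with or without the replicate block, RRM2B stood at -0.038 in CFPAC-1-GR, at 0.034 between the parental lines and at -0.10 for the difference of response, and RRM1 at 0.57 for the latter. The ratios in CFPAC-1-GR were then 5.28 for RRM1 to RRM2, 4.39 for RRM1 to RRM2B and 0.89 for RRM2B to RRM2. Together with a pseudocount of 0.1 the correction gave -1.08 for RRM2 and 0.76 for RRM2B in CFPAC-1-GR, -0.97 for RRM1 and -0.75 for RRM2B between the parental lines, and 0.44 for RRM1 and 0.61 for RRM2B as the difference of response.

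Under median-of-ratios and upper-quartile scaling the difference of response was 0.95 and 0.85 for RRM1, and 0.98 under both for RRM2B. These scalings moved the share of calls that were up in CFPAC-1-GR from 63.7% to 43.3% and 35.98%, and the correction moved it to 54.1%. Tested against an absolute log2FC of 1, RRM2 in BxPC-3-GR (-1.22, limma adjusted p = 0.86), RRM2B in CFPAC-1-GR (1.23, limma adjusted p = 0.094), RRM2 between the parental lines (1.08, limma adjusted p = 0.57) and the difference of response of RRM2B (1.16, limma adjusted p = 0.29) were not called.

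A pseudocount of 1 gave ratio differences of 5.01 for RRM1 to RRM2 and 4.65 for RRM1 to both small subunits in BxPC-3-GR. For CFPAC-1-GR it gave 3.85 for RRM1 to RRM2B and 1.64 for RRM2B to RRM2, while one of 0.1 gave 2.69 and 2.96 for the latter pair. As the log2 ratio of mean FPKM with no pseudocount, RRM2 was at -1.39 in BxPC-3-GR, RRM1 at 5.24 and RRM2B at 2.95 in CFPAC-1-GR, RRM1 at -1.85 and RRM2B at -2.94 between the parental lines, RRM2 at 2.12 between the resistant lines, and RRM1 at 1.41 and RRM2B at 2.85 for the difference of response.

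Leaving out 1 library at a time, RRM2 between the parental lines ranged from 0.98, without CFPAC-1 replicate 2, to 1.17, and RRM2B between the resistant lines from -0.11 to 0.020, the latter without CFPAC-1-GR replicate 2. The replicate block changed no call of a subunit. RRM2 in CFPAC-1-GR stayed at -0.40 with the block (limma adjusted p = 0.059). Of 12 pairs of libraries with a shared number, 6 correlated best with their own number.

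The 909 genes called in BxPC-3-GR became 1429 with a pseudocount of 0.1, 2665 with a minimum mean of 0.1 FPKM as well, 1428 with that pseudocount and the correction, and 380 tested against an absolute log2FC of 1. The 3880 in CFPAC-1-GR became 8320, 1852 and 2059 under the latter 3, 1042 with the correction at a pseudocount of 1, and 1046 with the block as well.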
